A study of Arabidopsis thaliana with 24 samples.

Results

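The transcript levels of *afb5-5* hypocotyls were compared with those of wild-type hypocotyls that had received solvent only, to see what the mutation did before any synthetic auxin was applied. The comparison took in the 6 arrays that the labels describe as 2 h DMSO treatments of either genotype, 3 per genotype, out of 24 arrays in the series. Of the others, 6 hold the same genotypes after 2 h with 5 µM picloram, hybridized to the same chip design, and 12 form a separate wild-type experiment on another design (experiment a). Every transcript of the chip was compared, 37118 in all from 32627 loci, and none was picked by its level.

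Wild type was the Columbia accession. The mutant was *afb5-5*, a single T-DNA line listed as SALK_110643 and labelled as resistant to picloram, so what follows describes 1 allele of 1 line. Both genotypes were grown for 5 days on nylon mesh in long days, moved onto DMSO medium 2 h after lights on, and dissected 2 h later. Each array held total RNA from a pool of about 700 hypocotyls, unamplified and labelled with Cy3, and the replicates were separate pools. In pooled tissue, fewer cells of a type and less RNA per cell cannot be told apart. Values are log2 of the deposited probe-set values, and a difference is *afb5-5* minus wild type, so that a difference of 1 is 2-fold.

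Auxin is perceived by the TIR1/AFB proteins, F-box subunits of SCF ubiquitin ligases. When auxin is bound, the receptor recruits an Aux/IAA repressor, which is degraded, and the auxin response factors that it held in check are freed to act on target genes such as the GH3 and SAUR families. AFB5 and its close relative AFB4 are the members known to respond to picloram, a synthetic auxin of the picolinate type, and *afb5* mutants are picloram resistant. In the hypocotyl, the embryonic stem, this pathway is known for promoting cell elongation.

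The arrays did not fall out by genotype. Replicate 1 of wild type and replicate 1 of *afb5-5* stood apart from the other 4 control arrays, with rank correlations to those of 0.961 to 0.979, against 0.988 to 0.994 among the 4. The pair correlated at 0.988 with each other. On 47.3% of transcripts both replicate 1 arrays lay above (8854) or below (8717) all of the other 4. Clock genes were among these: *PRR5* stood at 13.37 and 13.12 in the replicate 1 arrays and between 12.38 and 12.60 in the others, and *CCA1* at 10.71 and 11.31 against 11.57 to 12.03. Values without both replicate 1 arrays stand beside several results, and fits with the replicate number as a block also made 0 calls. Array medians ran from 512 to 528, and no measure of background or detection came with the values.

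No transcript passed the test. With limma and Benjamini-Hochberg adjustment over all transcripts, 0 of 37118 were called at a false discovery rate (FDR) under 0.05 (0%), and the smallest adjusted p was 0.999993. At an unadjusted p under 0.05 there were 338 transcripts (0.911%), of which 217 were higher in *afb5-5* (0.585%) and 121 lower (0.326%). The p-values gathered at the upper end, with 897 under 0.1 and 5198 over 0.9. Without both replicate 1 arrays there were again 0 calls and 385 transcripts at an unadjusted p under 0.05, of which 133 were shared with the 338. The same test called 461 transcripts between the genotypes in the picloram arrays (1.24%), 98 higher and 363 lower in *afb5-5*.

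The differences were also small. The median size of a difference was 0.10 and the 95th percentile 0.33 on the log2 scale. The 95% interval of the difference lay within 2-fold in either direction for 34514 transcripts (93%) and within 1.5-fold for 19526 (52.6%). The median half-width of the interval was 0.45, somewhat narrower for transcripts in the upper part of the level range (0.41) than in the lower part (0.49). A 2-fold difference lay outside the interval for most transcripts, whereas a 1.5-fold difference was inside it for nearly as many as not. The groups did not overlap for 1313 transcripts (3.54%), 755 higher (2.03%) and 558 lower (1.50%) in *afb5-5*.

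**Figure D1:**
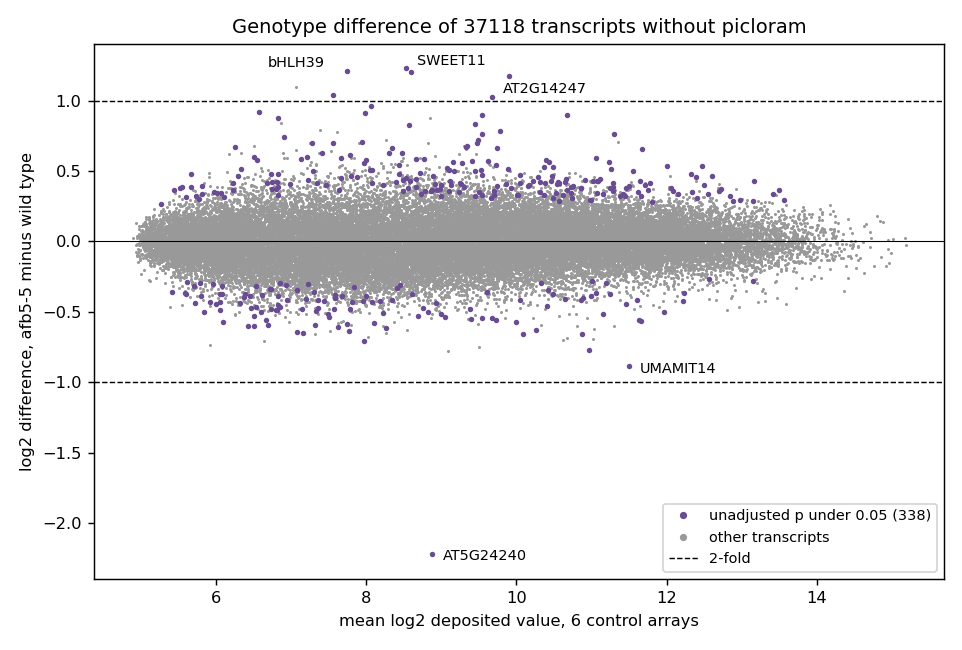
Log2 difference (*afb5-5* minus wild type) of each of the 37118 transcripts against its mean log2 deposited value over the 6 control arrays, with the 338 transcripts at an unadjusted p under 0.05 in purple and dashed lines at 2-fold. The cloud is centred on 0 at all levels, and 8 transcripts lie outside the dashed lines, 7 above and AT5G24240 alone below.

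*AFB5* itself (AT5G49980, chromosome 5) gave a clear signal in the mutant. Its log2 level was 13.38, 13.56 and 13.39 in wild type and 13.24, 13.06 and 12.97 in *afb5-5*. All 3 mutant arrays lay below the wild-type arrays, by a small margin. The difference was -0.35 (SE 0.20, 95% interval -0.79 to 0.08, unadjusted p = 0.102, limma), and without both replicate 1 arrays it was -0.46. The unadjusted p was 0.0437 with a replicate block on the 6 control arrays, and between 0.122 and 0.177 in the other block fits. In the picloram arrays the difference was 0.07 and the groups overlapped. Where the probes lie relative to the insertion is not given in the sources used here, so this signal does not check the genotype labels. The response to picloram bears on them more directly, since picloram called 804 transcripts in wild type and 0 in *afb5-5*.

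The other receptor genes differed little. *AFB4*, the nearest relative of *AFB5*, stood at 10.45, 10.78 and 10.46 in wild type and 10.74, 10.56 and 10.72 in the mutant, a difference of 0.11 (95% interval -0.24 to 0.46). *TIR1*, the founding member of the family, was at 11.98, 12.60 and 12.29 against 12.04, 12.39 and 12.30, a difference of -0.05 (-0.47 to 0.37). *AFB1* differed by -0.11, *AFB3* by -0.05, *AFB2* by -0.02 and *COI1*, the related jasmonate receptor gene, by 0.04. The groups overlapped for each of these 6 genes. Every one of the 7 intervals, that of *AFB5* included, lay within 2-fold. The second splice form of *AFB4* on the chip differed by -0.16, opposite in sign to the first.

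**Figure D2:**
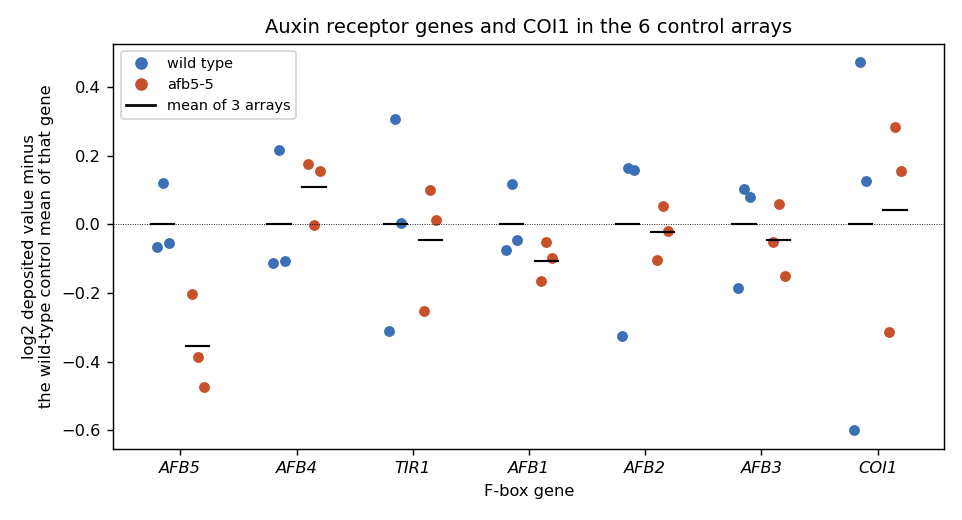
Log2 deposited values of *AFB5*, its 5 relatives and *COI1* in the 6 control arrays, each minus the wild-type mean of that gene (points: single arrays; black bars: means of 3 arrays). *AFB5* is the one gene whose 3 *afb5-5* arrays all lie below the wild-type arrays, and the 6 others overlap.

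The partners of the receptors were level as well. The list of SCF subunits, their regulators and the TOPLESS corepressors held 13 genes, 8 higher and 5 lower, with a median difference of 0.02 and all 13 intervals within 2-fold. It ran from *CUL1*, the cullin scaffold of the ligase, at -0.12 (-0.45 to 0.20) to *TPL*, the corepressor recruited by Aux/IAA proteins, at 0.14 (-0.31 to 0.59). Only *ECR1*, which encodes a subunit of the enzyme that activates the ubiquitin-like modifier of cullins, had groups that did not overlap, at 12.17 to 12.28 in wild type and 12.30 to 12.31 in *afb5-5*. That gap of a few hundredths is far inside the interval of its difference, -0.20 to 0.33.

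Aux/IAA repressor genes, many of which are auxin induced, were divided: 16 of 29 higher and 13 lower, with a median difference of 0.01 and all 29 intervals within 2-fold. *IAA30* had the lowest difference, -0.38 (-0.74 to -0.02, unadjusted p = 0.0383, limma). Its levels were low on the scale of the chip (median 9.02), at 6.73, 6.95 and 6.76 in wild type and 6.51, 6.49 and 6.29 in the mutant. *IAA29* had the highest difference, 0.27 (-0.08 to 0.62). *IAA19*, whose product restrains hypocotyl growth and bending, was at 10.61, 9.83 and 10.49 against 9.66, 10.05 and 10.13. Its groups overlapped and its difference was -0.36 (-1.0 to 0.27). Of the auxin response factors, 12 of 15 were higher with a median of 0.02. They ranged from *ARF5*, needed for vascular and embryo patterning, at -0.21 to *ARF4*, a regulator of organ polarity, at 0.46 (-0.10 to 1.01).

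The GH3 genes encode enzymes that couple auxin and other hormones to amino acids, and several are rapidly auxin induced. Of the 8 measured, 7 were lower in *afb5-5*, with a median difference of -0.11, beside -0.01 over all loci. *GH3.3* stood at 10.81, 11.55 and 11.26 in wild type and 10.11, 10.89 and 11.01 in the mutant, a difference of -0.54 (-1.15 to 0.07, unadjusted p = 0.0772). *GH3.5* stood at 12.02, 12.51 and 12.43 against 11.40, 12.02 and 12.26, a difference of -0.43 (-0.92 to 0.07, unadjusted p = 0.0832). In both genes the replicate 1 array was the lowest of its group, and the groups overlapped. None of the 8 had an unadjusted p under 0.05. The list median kept its sign in 17 of 18 alternatives, but not all of these could move it. Fits of the 6 control arrays alone, with a replicate block or with a variance trend left each difference as it was.

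SAUR genes, a large family of short-lived auxin-responsive transcripts with roles in cell expansion, were higher in the mutant more often than lower. Of 79 measured, 57 were higher in *afb5-5* (72.2%, beside 48.2% of all loci), with a median difference of 0.08. That median ran from 0.05 to 0.13 over the 18 alternatives, some of which, as for the GH3 list, could not move it. The arrays did not share that direction. The median level of the family was 8.02, 8.23 and 8.14 in the wild-type arrays and 7.82, 8.05 and 8.28 in those of *afb5-5*, with overlap. The members that stood out were few. *SAUR78* (AT1G72430) was at 9.68, 9.28 and 9.21 in wild type and 10.30, 10.07 and 10.16 in *afb5-5*, so that all mutant arrays lay above all wild-type arrays. Its difference was 0.79 (SE 0.21, 0.33 to 1.24, unadjusted p = 0.00278). *SAUR16* was at 8.47, 9.56 and 8.96 against 9.57, 9.62 and 9.80, a difference of 0.67 (0.07 to 1.27, unadjusted p = 0.0326). At the other end, *SAUR76* differed by -0.42 (-1.01 to 0.17). Groups did not overlap for 4 members (5.06%, beside 3.49% of all loci), 3 higher and 1 lower.

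Genes that answered picloram in experiment a were then read in the control arrays, since those 12 wild-type arrays share nothing with the mutant comparison. Induction or repression there meant an FDR under 0.05 and a change of at least 2-fold at 2 h. Of 727 induced loci measured, 339 were higher and 388 lower in *afb5-5*, with a median difference of -0.01, and 17 had an unadjusted p under 0.05 (0.944% of all loci did), 7 higher and 10 lower. Of 634 repressed loci, 406 were higher (64.0%), with a median of 0.05, and the 12 with an unadjusted p under 0.05 were all higher. The groups lay apart upward for 31 repressed loci and downward for 5, beside 1.97% and 1.51% of all loci. Over the 18 alternatives, some of which could not move a median, that of the repressed loci ran from 0.01 to 0.11. That of the induced loci changed sign in 4.

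Genes that place and make auxin showed no more. Of 15 auxin transport genes 6 were higher, with a median of -0.02, and *LAX1*, for an influx carrier, was the highest of them at 0.20 (-0.15 to 0.54). Of 13 genes of auxin synthesis and inactivation 4 were higher, with a median of -0.12. *YUC9*, a flavin monooxygenase of the main synthesis route, was at 9.38, 9.0 and 9.08 in wild type and 8.93, 8.71 and 8.52 in *afb5-5*. Its groups did not overlap and its difference was -0.44 (-0.83 to -0.04, unadjusted p = 0.0329). *YUC6*, of the same family, went the other way: 9.23, 9.69 and 9.54 against 9.95, 9.95 and 9.89, also without overlap, a difference of 0.44 (-0.03 to 0.92). *TAR2*, which acts one step earlier, differed by 0.57 (-0.08 to 1.22).

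The other growth pathways stayed within the same range. For gibberellin, 7 of 18 genes were higher, with a median of -0.10, from *RGL1*, a DELLA repressor gene, at -0.35 (-1.23 to 0.54) to *SLY1*, the F-box gene that removes DELLA proteins, at 0.32 (-0.13 to 0.77). Brassinosteroid genes were higher in 7 of 8 cases with a median of 0.08, which without wild-type replicate 1 became -0.04 and without *afb5-5* replicate 1 became 0.28. They ran from the receptor gene *BRI1* at -0.06 to the transcription factor gene *BZR1* at 0.40 (-0.25 to 1.05). For ethylene and cytokinin, 4 of 16 were higher. The median of that list was -0.04. *ACS4*, an auxin-induced gene for an enzyme of ethylene synthesis, differed by -0.35 (-0.91 to 0.20).

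Light signalling genes were higher in 12 of 15 cases, with a median of 0.13, or 0.06 without both replicate 1 arrays and -0.03 without wild-type replicate 1 alone. They ran from the blue light receptor gene *CRY1* at -0.04 to *HFR1*, an inhibitor of the growth-promoting PIF factors, at 0.30 (-0.12 to 0.73). *PIF4* was at 12.41, 12.55 and 12.60 in wild type and 12.61, 12.66 and 12.71 in the mutant, a difference of 0.14 (-0.12 to 0.39). Its arrays did not overlap, though the nearest of them were closer together than the arrays within either genotype. Of 25 wall-loosening enzymes and proton pumps 12 were higher, with a median of -0.01. *XTH5*, a xyloglucan-modifying enzyme gene, was the lowest of these at -0.50 (-0.92 to -0.09, unadjusted p = 0.0223), and *XTH24*, of the same family, the highest at 0.23. Of 11 clock genes 6 were higher with a median of 0.04, from *PRR5* at -0.18 to *CCA1* at 0.42 (-0.22 to 1.07). Wounding and stress genes, which dissection could touch, were higher in 6 of 18 cases, from *JAZ1* at -0.29 to *CBF1* at 0.26.

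The genes on either side of *AFB5* were listed because a T-DNA line can differ near its insertion. Of the 10 annotated loci on each side, 18 were on the chip, of which 12 were higher in *afb5-5* with a median difference of 0.16, or 0.04 without both replicate 1 arrays. AT5G50010 was at 10.15, 10.27 and 10.31 in wild type and 10.70, 10.55 and 10.76 in the mutant, a difference of 0.43 (0.09 to 0.76, unadjusted p = 0.0171) without overlap. The lowest neighbour was AT5G50030 at -0.22. All 18 intervals lay within 2-fold.

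Over these 16 lists together, 308 loci were measured. The interval lay within 2-fold for 286 (92.9%), an unadjusted p was under 0.05 for 7 (2.27%, beside 0.944% of all loci) and the groups lay apart for 20 (6.49%, beside 3.49%).

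**Figure D3:**
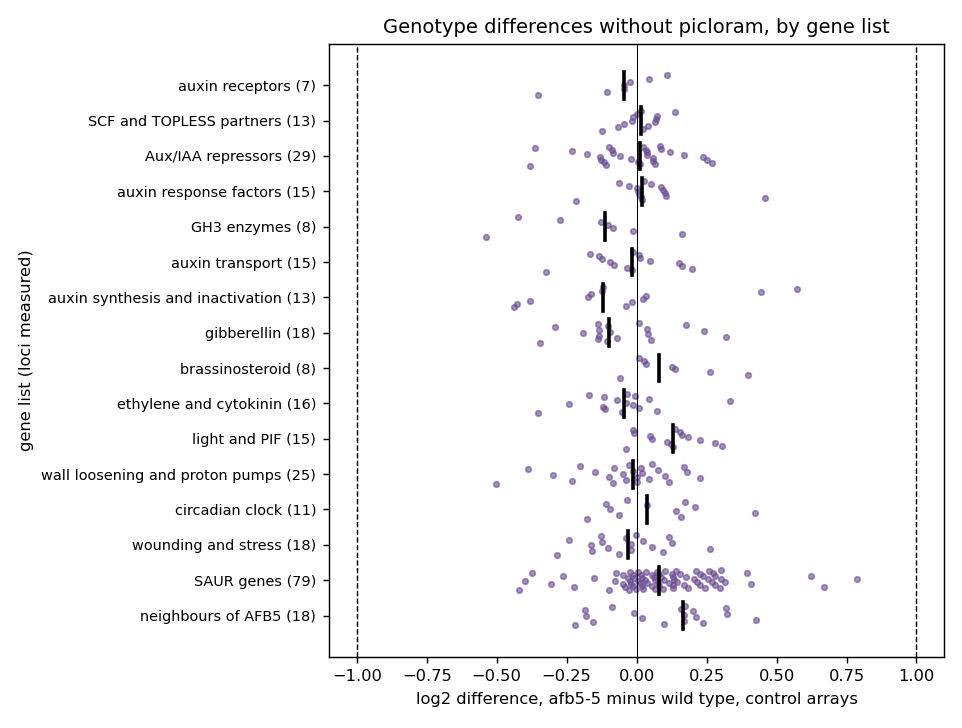
Log2 difference (*afb5-5* minus wild type, control arrays) of each locus in the 16 gene lists, with the median of each list as a black bar and dashed lines at 2-fold. No locus of these lists reaches 2-fold, and list medians lie between -0.12 and 0.16.

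Markers of other organs and cell types were read for unequal dissection. None of the 35 had an unadjusted p under 0.05, beside 0.944% of all loci. Intervals lay within 2-fold for 33 (94.3%, beside 92.7% of all loci), and groups lay apart for 2 (5.71%, beside 3.49%). With so few markers, these counts cannot show that dissection was equal. The summed level of 8 cotyledon and leaf markers was 101840 to 110789 in wild type and 104819 to 106857 in *afb5-5*, and that of 8 root markers 35191 to 37152 against 32275 to 36799. For 6 vascular markers the sums were 6499 to 9864 and 5974 to 8336, with the lowest value of each range in a replicate 1 array. The apex genes *STM* and *LFY*, the root genes *WOX5* and *RHD6* and the seed gene *SESA1* all lay between 5.55 and 6.86. That is low on the scale of the chip, whose median level was 9.02. Other members of the apex and root lists were brighter. The 5 apex markers summed to 8910 to 11013 in wild type and 9349 to 11259 in *afb5-5*. The lists held no gene that marks the hypocotyl alone.

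Loci, each by its lowest-numbered splice form, were next ranked by unadjusted p, taking those above the median level whose groups did not overlap, 10 in each direction, and the first 3 in each direction at any level, which made 22 loci. This ranking picks them for their difference in these arrays, so the values below describe them and test nothing. None was called, with an adjusted p of 0.999993 or more for every transcript. The fit with array weights called 15 of the 22, beside 183 of all 37118 transcripts, and no other alternative called any. That fit includes the control arrays that the ranking used, so its calls are no separate support for these loci.

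AT5G24240, which has no symbol in the reference, showed by far the largest difference. Its level was 9.45, 10.85 and 9.68 in wild type and 8.38, 7.17 and 7.76 in *afb5-5*. Each mutant array was more than 2-fold below each wild-type array, although wild-type replicate 2 lay well above the other wild-type arrays. The difference was -2.22, or 4.66-fold (SE 0.44, 95% interval -3.18 to -1.27, unadjusted p = 0.000292, limma), and -2.80 without both replicate 1 arrays.

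Membrane transporters were among the ranked loci on both sides. *SWEET12*, for a sucrose exporter that acts in phloem loading, was at 8.80, 9.11 and 9.18 in wild type and 9.73, 9.63 and 10.22 in *afb5-5*, a difference of 0.83 (SE 0.20, 0.40 to 1.27, unadjusted p = 0.00134). Its partner in phloem loading *SWEET11* lay below the median level and was not among the first 3 at any level. *SWEET11* was looked up after its value had been seen. It gave the highest difference on the chip, 1.23 (0.45 to 2.01), from 7.82, 7.84 and 8.10 in wild type to 8.33, 9.08 and 10.03 in the mutant. Both genes were thus higher in every mutant array, *SWEET11* with a wide spread within the mutant. *UMAMIT14*, for an amino acid exporter, was lower: 11.52, 12.46 and 11.83 against 10.97, 11.11 and 11.09, a difference of -0.88 (SE 0.27, -1.47 to -0.30, unadjusted p = 0.00677).

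*GER3*, for a germin-like protein of the cell wall, was at 9.53, 8.92 and 8.84 in wild type and between 9.87 and 10.11 in the 3 mutant arrays. It came first in this ranking among loci that were higher (difference 0.90, SE 0.20, 0.46 to 1.34, unadjusted p = 0.000829). *UCC1*, for a uclacyanin, a small copper protein, was the most even, at 10.98, 11.01 and 11.00 against 11.49, 11.51 and 11.54, a difference of 0.51 (0.17 to 0.85). *SBT4.12*, for a subtilisin-like protease, was at 11.38, 11.55 and 11.12 against 11.82, 12.11 and 12.09, a difference of 0.66 (0.30 to 1.01). The second splice form of *SBT4.12* differed by 0.30, with overlap.

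Of the other loci that were higher, AT2G14247 was at 9.08, 9.18 and 9.23 in wild type and 9.95, 10.18 and 10.44 in *afb5-5*, a difference of 1.03 (0.44 to 1.61). AT1G62510 was at 10.96, 11.13 and 10.67 against 11.68, 11.56 and 11.82, a difference of 0.77 (0.37 to 1.16). Neither has a symbol in the reference. *KCS12*, of the ketoacyl-CoA synthases that elongate fatty acids, was at 9.96, 10.34 and 10.02 against 10.59, 10.60 and 10.86 (0.58). The remaining members were AT1G60060 (0.70), AT3G56290 (0.66) and *SAUR78*, given with its family.

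Most of the lower loci differed by less. AT5G63350 was at 11.23, 11.22 and 11.17 in wild type and 10.59, 10.61 and 10.45 in *afb5-5*, with almost no spread in wild type and a difference of -0.65 (SE 0.15, -0.97 to -0.34, unadjusted p = 0.000764). *ADS1*, for a fatty acid desaturase, was at 11.43, 11.40 and 11.41 against 10.70, 11.07 and 10.93, a difference of -0.51 (-0.90 to -0.12). The others, with no symbol in the reference, ran from AT5G13900 at -0.71 to AT1G26450 at -0.41. Between them lay AT5G12970 (-0.63), AT5G54400 (-0.55), AT1G03820 (-0.54), AT4G16745 (-0.53), AT2G33850 (-0.42) and AT1G16550, annotated as a transcribed pseudogene (-0.42). Among the 20 loci above the median level only AT2G14247 reached 2-fold.

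**Figure D4:**
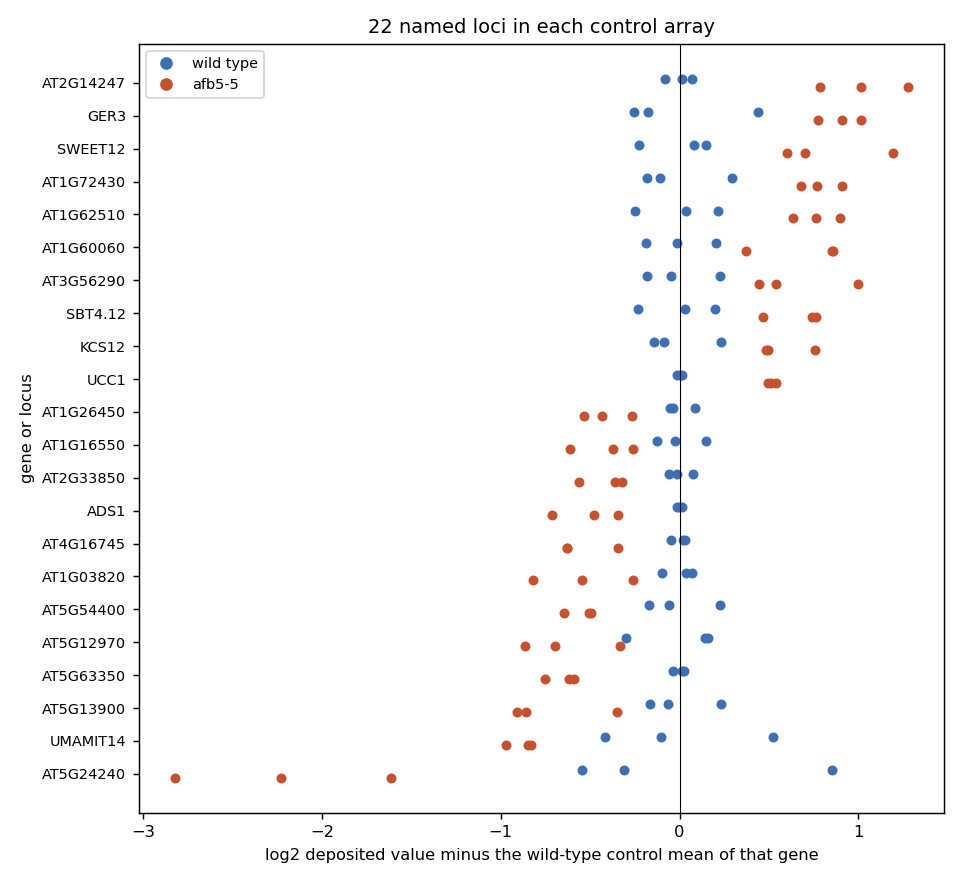
Log2 deposited value of the 22 ranked loci in each of the 6 control arrays, minus the wild-type control mean of that locus (blue: wild type; red: *afb5-5*). The 3 arrays of either genotype do not overlap at any locus, by construction, and AT5G24240 lies farthest from its wild-type arrays at -2.22 on average.

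In all, 8 transcripts had a difference beyond 2-fold. Besides AT5G24240, AT2G14247 and *SWEET11*, these were *bHLH39*, a regulator of iron uptake, at 1.21 (0.33 to 2.09), AT2G43870 at 1.2 (0.54 to 1.86), *ICL*, for the isocitrate lyase that serves lipid mobilization in young seedlings, at 1.17 (0.32 to 2.02), AT1G70185, annotated as a noncoding RNA, at 1.1 (-0.25 to 2.44), and AT1G34844, annotated as a long noncoding RNA, at 1.04 (0.37 to 1.71). AT1G70185 rested on 1 array, with 7.04, 6.25 and 9.57 in *afb5-5*. *ICL* was at 8.88, 9.85 and 9.24 in wild type and 10.22, 10.35 and 10.92 in the mutant, without overlap.

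The picloram arrays hold the same genotypes in 6 other pools, which the ranking did not use, although all 12 arrays shared 1 estimate of the spread. A genotype difference there also holds any picloram response that differs between the genotypes. A shared direction is therefore not a plain repeat of the untreated difference. The shared estimate also means that choosing transcripts by a small p under control favours those with a small p here. For p-values and calls, the shares over all transcripts are thus not a like baseline. Of the 338 transcripts at an unadjusted p under 0.05 in the control arrays, 236 had the same direction in the picloram arrays (69.8%, beside 50.3% of all transcripts). Of these 338, 110 had the same direction with an unadjusted p under 0.05 (32.5%, beside 5.84% of all transcripts, where 9.01% had such a p in either direction), and 29 were called in the same direction at an FDR under 0.05 (325 of all 37118 transcripts, 0.876%). The share with the same direction was higher for transcripts that were higher in *afb5-5* (164 of 217) than for those that were lower (72 of 121), a contrast that was not tested.

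Of the 20 loci ranked above the median level, 17 had the same direction in the picloram arrays, 9 of them with an unadjusted p under 0.05, and 10 had groups that again did not overlap in that direction (over all transcripts, groups lay apart for 16.7%, upward for 7.79% and downward for 8.89%). Calls at an FDR under 0.05 were made for 4, and for AT5G24240 from the ranking at any level. Of all transcripts, 5.84% had the same direction with an unadjusted p under 0.05 and 0.876% were called in it, with the limit given above. AT5G24240 was at 10.78, 10.80 and 10.20 in wild type with picloram and 7.93, 6.64 and 7.87 in *afb5-5*, a difference of -3.12 (limma adjusted p = 0.00471). *SWEET12* was at 7.63, 8.18 and 8.12 against 9.14, 8.98 and 9.22, a difference of 1.14 (limma adjusted p = 0.0179). For both, the genotypes were again well separated. *UCC1* differed by 0.90 (limma adjusted p = 0.0167), AT1G62510 by 0.89 (limma adjusted p = 0.0355) and *UMAMIT14* by -1.25 (limma adjusted p = 0.0487). *SWEET11* differed by 1.15 without overlap and without a call (limma adjusted p = 0.246).

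Other ranked loci differed by less in the picloram arrays, or in the other direction. *GER3* differed by 0.27 with overlap, AT5G63350 by -0.17 and AT5G13900 by -0.05. A pair of loci turned round without overlap. *KCS12* was at 11.26, 11.11 and 11.14 in wild type with picloram and 10.64, 10.84 and 10.79 in *afb5-5*, a difference of -0.41. AT1G60060 was at 10.26, 10.64 and 10.55 against 9.83, 10.11 and 10.05, a difference of -0.48. In both, wild type stood higher with picloram than without, while the mutant stood about level. The change of the genotype difference with treatment was not called for either (limma adjusted p = 0.144 for *KCS12* and 0.166 for AT1G60060), nor for any of the 22 loci or the 7 receptor genes, against 38 transcripts called on the whole chip (0.102%).

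**Figure D5:**
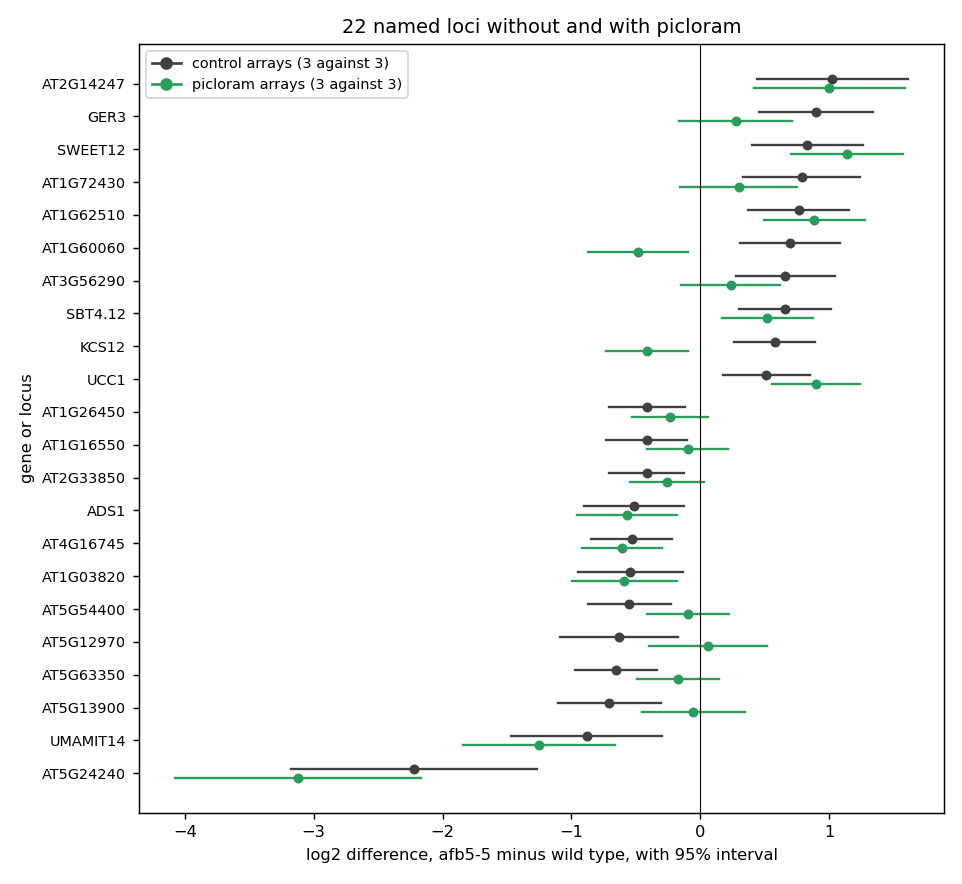
Log2 difference (*afb5-5* minus wild type) of the 22 ranked loci with its 95% interval in the control arrays (grey) and in the separate picloram arrays (green), 3 arrays against 3 each. AT5G24240 lies lowest in both, at -2.22 and -3.12, and *KCS12* and AT1G60060 lie on opposite sides of 0.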

How the data were processed

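The deposited intensity values were the submitters' RMA-normalized probe-set values (background correction, quantile normalization and summarization), on a linear scale and with no counts or depth, and per the labels each sample was 1 Cy3 channel. The authors' chip for these samples was annotated on TAIR10. The number of arrays limits the precision. No sample column was left without a sample (0). Values were taken to log2, and all 12 arrays of the 4 groups were fitted with limma 3.58.1 in R 4.3.3 (lmFit, eBayes, no covariate, Benjamini-Hochberg over 37118 transcripts, FDR 0.05, 95% moderated intervals). Locus tags were matched to RefSeq (31993 of 32627 loci) for symbols, and lists used the lowest-numbered splice form of each locus. Experiment a was quantile normalized and fitted separately.

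The named loci were the 10 in each direction with the smallest p among loci above the median level with groups that did not overlap, the first 3 in each direction at any level, the auxin receptors, and the extremes of each list. Members, lists and rule were chosen with earlier results of these data known. A few loci were added after their values were seen, as stated where they appear. A few members of the lists are not reported here by name. The script was tested on simulated data.

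Alternatives changed the normalization (quantile, array medians), left out the dimmest 25% of transcripts, used the 6 control arrays alone, a variance trend with a robust fit, array weights, locus means, an FDR of 0.10, both mutant groups together, a replicate block, and left out each of 6 control arrays in turn. After the data were seen, a fit without both replicate 1 control arrays and a replicate block within each treatment were added. Same-numbered control arrays deviated from their group means together with r of 0.69, 0.04 and 0.57. The main fit did not treat replicate numbers as pairs, so any effect shared by a replicate number stayed in its spread. Fits with the replicate block are given beside it.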

Additional observations from a re-analysis of the deposited data

How the results depend on the processing

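The count of 0 calls held in every alternative except array weights, which called 183 transcripts (128 higher, 55 lower) and put 6542 at an unadjusted p under 0.05. The highest weights in that 12-array fit were those of the picloram arrays *afb5-5* replicate 3 (59.7) and wild-type replicate 3 (16.6). Among the control arrays they were 4.28 for wild-type replicate 3, 3.32 for *afb5-5* replicate 2 and 0.174 to 0.423 for the others, and their estimation stopped before it converged. Transcripts at an unadjusted p under 0.05 numbered 203 in the fit of the 6 control arrays, 575 with both mutant groups combined, and 291 to 1018 when 1 control array was left out. The highest of these counts came without *afb5-5* replicate 1, and there were 673 without wild-type replicate 2 and 536 without *afb5-5* replicate 2. The cause was not tested. With the replicate block there were 572 (12 arrays), 946 (control arrays alone) and 530 (within each treatment), again with 0 calls. In these 3 block fits the interval lay within 2-fold for 35138, 36870 and 34598 transcripts, beside 34514 in the main fit. The interval lay within 2-fold for 30891 to 33352 transcripts when 1 control array was left out. The *AFB5* difference kept its sign throughout, with an unadjusted p of 0.0185 with both mutant groups and 0.00631 with array weights. Among receptors near 0, signs turned: *TIR1* became 0.061 with array weights, *AFB2* 0.024 with both mutant groups, *AFB4* -0.025 with locus means and *COI1* -0.080 without both replicate 1 arrays. When 1 control array was left out, *TIR1* ran from -0.20 to 0.11, *AFB2* from -0.18 to 0.060, *AFB3* from -0.14 to 0.0060 and *COI1* from -0.26 to 0.28.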

Other observations

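The 29 transcripts that had an unadjusted p under 0.05 in the control arrays and were called in the same direction in the picloram arrays were 18 higher and 11 lower in *afb5-5*. They were looked at after their values had been seen, so what follows is a description. Among those that were lower was *KDR*, a small helix-loop-helix gene that promotes growth (-0.28 without and -2.07 with picloram). Its mean was 11.15 without and 13.03 with picloram in wild type, against 10.87 and 10.96 in *afb5-5*. The change of its genotype difference with treatment was called (limma adjusted p = 0.00266). *GATA23*, an auxin-induced transcription factor gene, was lower too (-0.48 and -0.90), though dim, at 6.39 to 7.22 in the control arrays. Among those that were higher were *LACS1*, for an acyl-CoA synthetase of cuticle wax formation (0.28 and 0.93), and *DIR1*, for a lipid transfer protein of systemic resistance (0.56 and 1.05). *MYBL2*, for a repressor of anthocyanin synthesis, was higher too (0.36 and 1.11), with overlap in the control arrays. Wild-type means without and with picloram were 11.66 and 11.05 for *LACS1*, 9.01 and 8.73 for *DIR1*, and 11.90 and 11.03 for *MYBL2*. Those of *afb5-5* were 11.94 and 11.98, 9.56 and 9.78, and 12.26 and 12.15. The change of the genotype difference with treatment was called for none of them. The second splice form of *APT4*, an adenine phosphoribosyltransferase gene, had the smallest p of the higher ones, at 11.78, 11.68 and 11.77 in wild type and 12.23, 12.29 and 12.32 in *afb5-5* (0.54, or 0.90 with picloram). Its first form stood at 6.73 to 7.18 and 7.04 to 8.08, with overlap (0.57).

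A pair of genes for proteins that organize the Casparian strip of the endodermis was also looked at after its values had been seen. *CASP1* was at 11.41, 11.02 and 10.79 in wild type and 11.56, 11.56 and 11.35 in *afb5-5* (0.42), and *CASP2* at 8.62, 8.33 and 8.40 against 8.68, 9.05 and 8.95 (0.44). The groups overlapped for *CASP1* and lay apart for *CASP2*. In the picloram arrays the differences were 0.72 and 0.58. Neither was called in either treatment (limma adjusted p of 0.0948 for *CASP2* with picloram). Of the root markers, *COBL9* was lower in the control arrays (-0.43) and the largest difference above 0 was 0.07, for *PHT1;1*.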
